A study of Sus scrofa with 12 samples.

Results

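Cholesterol synthesis genes of the liver were examined in suckling piglets with and without swine inflammation and necrosis syndrome (SINS), a condition with swelling, redness and necrosis of the tail, ears, teats and claws. The genes were 6 enzymes of the mevalonate and squalene steps, HMGCS1, MVK, IDI1, FDPS, FDFT1 and SQLE, together with INSIG1, the feedback protein of the same pathway. They were found by symbol, as the transcripts of the array that carry only that gene symbol, and 5 of the 7 symbols were found, among 12307 genes named in this way. MVK (transcript 15230917), INSIG1 (15251758), HMGCS1 (15242729), SQLE (15282785) and FDPS (15285196) each had 1 such transcript, so that no choice between transcripts was needed. IDI1 and FDFT1 had no transcript under their symbol alone and were not analysed here. The SINS high group held the 6 piglets with the highest clinical scores and the SINS low group the 6 piglets with the lowest scores, which had no signs or only slight ones, and they are called SINS high 1 to 6 and SINS low 1 to 6. All were unweaned offspring of Baden-Württemberg hybrid sows and Pietrain semen, scored and sampled on the third day of life, and the sexes were mixed. The 12 piglets came from 120 piglets of 40 sows, and the labels do not say which of them were littermates. Because the piglets were chosen from the ends of the score, the groups do not describe piglets in between.

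Liver cells make cholesterol from acetyl-CoA. HMGCS1 joins acetyl-CoA units to HMG-CoA, MVK phosphorylates mevalonate, FDPS builds farnesyl diphosphate from isoprene units, and SQLE adds oxygen to squalene before the sterol rings close. The transcription factor SREBP2 switches on the genes of nearly every step when sterols are low. When sterols are plentiful, INSIG1 holds SREBP2 and its escort SCAP in the endoplasmic reticulum, and INSIG1 is itself a target of SREBP2. In the liver the pathway supplies membranes, bile acids and lipoproteins, and farnesyl diphosphate is also the branch point towards coenzyme Q, dolichol and prenylated proteins.

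Each liver was measured on 1 array, as the log2 value of each of 25388 transcripts, normalized across arrays by the authors. Array medians were 4.36 to 4.42 on the log2 scale, and any pair of arrays correlated at 0.964 to 0.988. Precision is limited by the 12 arrays. log2(FC) is the mean log2 value of the SINS high group minus that of the SINS low group. A gene is called up- or down-regulated where limma gave p below 0.05 before adjustment and the fold change passed 1.3, the limits of the study. With the p-values of limma adjusted over all transcripts by Benjamini-Hochberg, 0 transcripts lay below 0.05, and the smallest adjusted p was 0.254. Before adjustment 2884 transcripts lay below 0.05 with limma and 2631 with the methods' t-test, which also gave 0 after adjustment. Exact p-values are two-sided and come from permutations over all 924 assignments of the livers to groups, of which the smallest possible is 0.00216. In whole liver, fewer cells of a type and less RNA per cell cannot be told apart.

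Of the 5 measured genes, MVK and INSIG1 were called up in the SINS high group, 0 were called down, and HMGCS1, SQLE and FDPS were not called. Of all transcripts, 2.12% were called up and 3.04% down. The methods' t-test, by which 1.52% of all transcripts were called up and 2.36% down, made the same calls among the 5 genes, and so did a fold limit of 1.5, which 0.65% of all transcripts passed upwards and 0.989% downwards. The median log2(FC) of the 5 genes was 0.09, against 0.01 over all transcripts.

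MVK had the clearest difference. The log2 values of MVK were 7.55, 7.19, 6.84, 7.01, 7.32 and 7.04 in SINS high 1 to 6, against 6.87, 6.19, 6.28, 6.10, 6.54 and 6.37 in SINS low 1 to 6. In 5 of 6 SINS high livers MVK was above the highest SINS low liver, and the groups overlapped only through SINS high 3 and SINS low 1. The SINS high group averaged 7.16 ± 0.25 and the SINS low group 6.39 ± 0.28 (SD, n = 6 each). This gave a log2(FC) of 0.77 (standard error 0.14), a fold change of 1.70 with a 95% confidence interval of 1.37 to 2.11. limma gave p = 0.000101 and an adjusted p of 0.262, and the exact permutation test gave p = 0.00433. MVK was called with every single liver left out. Without SINS high 6 its adjusted p from limma was 0.0419, whereas without any other liver it was at least 0.140.

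INSIG1 was also higher in the SINS high group, with a wider overlap. In INSIG1 the log2 values were 7.87, 8.76, 8.88, 7.66, 7.80 and 8.09 in SINS high 1 to 6, against 7.37, 7.63, 7.10, 7.05, 8.35 and 7.29 in SINS low 1 to 6. SINS high 2 and SINS high 3 were above all SINS low livers, and SINS low 5 lay above the other 4 SINS high livers. Without SINS low 5 every SINS high liver would be above every SINS low liver. The SINS high group averaged 8.18 ± 0.52 and the SINS low group 7.47 ± 0.48 (SD, n = 6 each). This gave a log2(FC) of 0.71 (standard error 0.25), a fold change of 1.64 with a 95% confidence interval of 1.13 to 2.37. limma gave p = 0.0129 and an adjusted p of 0.337, and the exact permutation test gave p = 0.0368. With single livers left out the log2(FC) lay between 0.57 and 0.89, and INSIG1 was called each time.

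**Figure D1:**
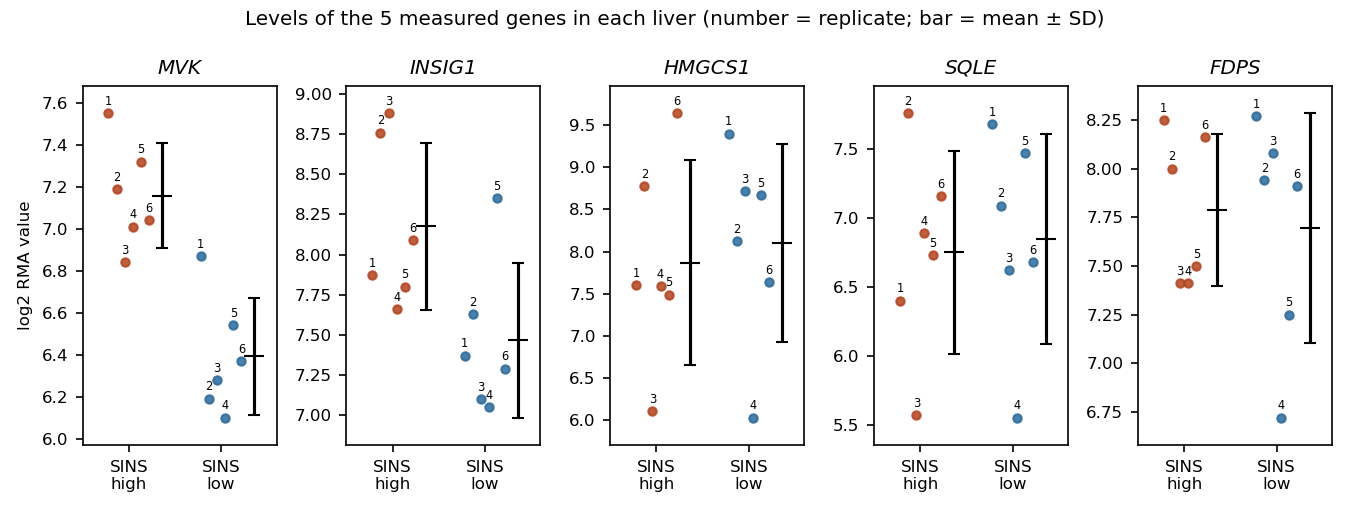
Log2 value of MVK, INSIG1, HMGCS1, SQLE and FDPS in each liver, with its own scale for each gene; points are livers numbered by replicate, SINS high on the left and SINS low on the right, and bars are the mean and SD of 6 livers. MVK overlaps only between 6.84 in SINS high 3 and 6.87 in SINS low 1, whereas HMGCS1, SQLE and FDPS spread over overlapping ranges in both groups.

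The other 3 enzymes differed widely from liver to liver within both groups. HMGCS1 had log2 values of 7.60, 8.78, 6.11, 7.59, 7.49 and 9.64 in SINS high 1 to 6, against 9.40, 8.12, 8.72, 6.03, 8.67 and 7.64 in SINS low 1 to 6. The lowest and the highest liver differed by 3.61, which is 12.2-fold, and each group held 1 of the 2 lowest and 1 of the 2 highest livers. The spread of HMGCS1 over the 12 livers was above that of 99.7% of all transcripts. The SINS high group averaged 7.87 ± 1.21 and the SINS low group 8.10 ± 1.17 (SD, n = 6 each). HMGCS1 thus had a log2(FC) of −0.23 (standard error 0.58), with a 95% confidence interval of the fold change of 0.36 to 2.02 (adjusted p of limma 0.921). A difference of the size of that of MVK, 1.70-fold, lies within this interval. It lies above the intervals of SQLE and FDPS, which end at 1.62 and 1.55. The interval of MVK itself starts at 1.37 and overlaps both.

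SQLE was at log2 values of 6.40, 7.76, 5.57, 6.89, 6.73 and 7.16 in SINS high 1 to 6, against 7.68, 7.09, 6.62, 5.55, 7.47 and 6.68 in SINS low 1 to 6. As in HMGCS1, SINS low 4 and SINS high 3 were the lowest, and the range was 4.63-fold. The SINS high group averaged 6.75 ± 0.74 and the SINS low group 6.85 ± 0.76 (SD, n = 6 each). SQLE thus had a log2(FC) of −0.10 (standard error 0.37), with a 95% confidence interval of the fold change of 0.541 to 1.62 (adjusted p of limma 0.950).

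FDPS varied less, at log2 values of 8.25, 8.00, 7.41, 7.41, 7.50 and 8.16 in SINS high 1 to 6, against 8.27, 7.94, 8.08, 6.72, 7.25 and 7.91 in SINS low 1 to 6. SINS low 4 was the lowest liver and SINS low 1 the highest, and the range was 2.93-fold. The SINS high group averaged 7.79 ± 0.39 and the SINS low group 7.70 ± 0.59 (SD, n = 6 each). The log2(FC) was 0.09 (standard error 0.25), with a 95% confidence interval of the fold change of 0.736 to 1.55 (adjusted p of limma 0.925). The directions of these 3 genes are not settled, because HMGCS1, SQLE and FDPS changed sign when single livers were left out. Without SINS low 4 the log2(FC) was −0.64 for HMGCS1, −0.36 for SQLE and −0.10 for FDPS. Without SINS high 3 it was 0.12 for HMGCS1 and 0.14 for SQLE, without SINS low 1 it was 0.03 for HMGCS1 and 0.07 for SQLE, and without SINS low 5 it was 0.03 for SQLE.

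Whether MVK and INSIG1 differed more between the groups than the other enzymes was tested within livers, as the difference between the log2 values of 2 genes, in 11 pairs that were chosen after the values had been seen. In 0 of the 11 pairs was the adjusted p below 0.05. The log2(FC) of MVK exceeded that of FDPS by 0.67 (exact permutation p = 0.026, adjusted p 0.143), that of SQLE by 0.86 (exact p = 0.0519, adjusted p 0.190) and that of HMGCS1 by 0.995 (exact p = 0.149, adjusted p 0.329). INSIG1 exceeded SQLE by 0.81 (exact p = 0.0823, adjusted p 0.226), and the log2(FC) of MVK and INSIG1 differed by 0.055 (exact p = 0.866). The call of MVK and INSIG1 and the lack of a call in the other 3 genes therefore do not show that the genes differed in their response.

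Over the 12 livers, HMGCS1 and SQLE had the closest relation among the 10 pairs of measured genes. Pearson's r was 0.877 (permutation p = 0.00038, adjusted p 0.0038) and Spearman's rho 0.769 (permutation p = 0.00471, adjusted p 0.0471). The r was 0.846 within the SINS high group and 0.908 within the SINS low group, with 6 livers each. When the 2 livers farthest from the median of HMGCS1 were left out, SINS low 4 and SINS high 3, r was 0.669 with an adjusted p of 0.397 (permutation). Without SINS low 4 alone r was 0.826 (permutation, adjusted p 0.023) and rho 0.700 (permutation, adjusted p 0.206). Leaving out both livers narrows the range of HMGCS1 and leaves 10 livers. The lower r therefore cannot show whether the relation of this pair rests on these 2 livers. HMGCS1 and FDPS had an r of 0.696 (permutation p = 0.0112, adjusted p 0.0558) and a rho of 0.694 (adjusted p 0.0746), and an r of 0.413 without the same livers. SQLE and FDPS had an r of 0.524 (permutation, adjusted p 0.261), which was −0.03 without them.

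INSIG1, whose gene is a target of the same factor, had an r of 0.016 with HMGCS1, 0.152 with SQLE and 0.002 with FDPS over the 12 livers. The r with SQLE was −0.12 among SINS high livers and 0.635 among SINS low livers, and 0.534 without SINS low 4 and SINS high 3. The r with HMGCS1 was −0.16 among SINS high livers and 0.389 among SINS low livers. In SINS high 3, where HMGCS1 and SQLE were the second lowest of all livers, INSIG1 had its highest value. MVK and INSIG1, the called genes, had an r of 0.494 (permutation p = 0.104, adjusted p 0.261) and a rho of 0.587 (permutation p = 0.049, adjusted p 0.163). Within the groups this relation was not kept, with an r of −0.46 among SINS high livers and 0.33 among SINS low livers, and of −0.06 after each group's mean was subtracted. The r of MVK with HMGCS1, SQLE and FDPS was 0.164, 0.221 and 0.354 over the 12 livers, and 0.473, 0.525 and 0.504 after the group means were subtracted. Among SINS high livers it was 0.166 with HMGCS1, 0.213 with SQLE and 0.554 with FDPS, and among SINS low livers 0.761 with HMGCS1, 0.799 with SQLE and 0.482 with FDPS. Over the livers without SINS low 4 it was −0.10 with HMGCS1, −0.03 with SQLE and 0.08 with FDPS.

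**Figure D2:**
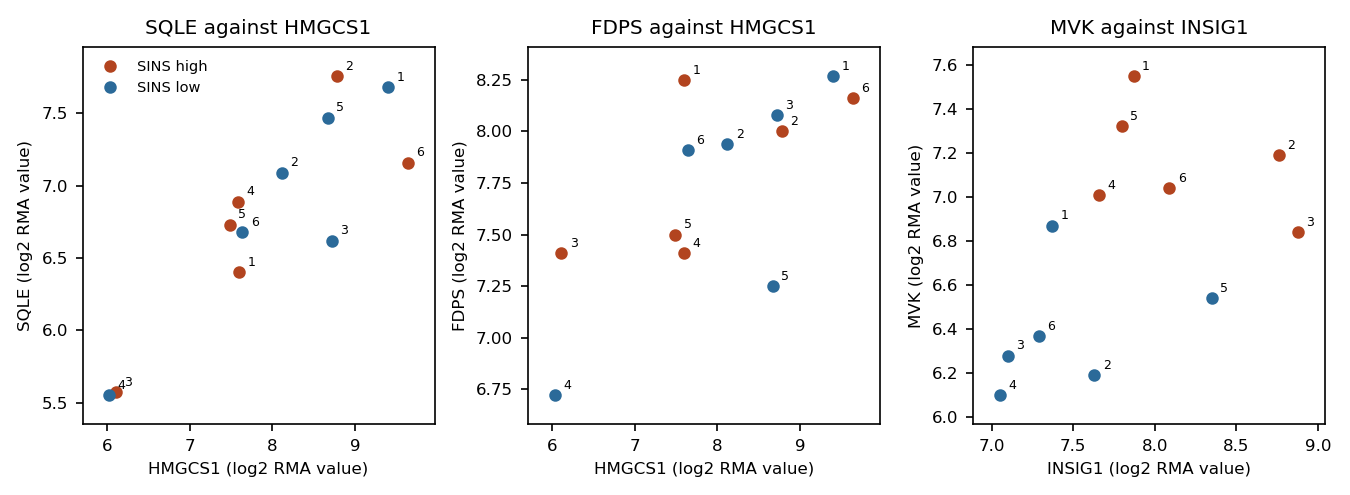
Log2 values of 2 genes in each liver, for SQLE against HMGCS1, FDPS against HMGCS1 and MVK against INSIG1; each point is a liver, coloured by group and numbered by replicate. SINS low 4 and SINS high 3 lie together at the low end of HMGCS1 and SQLE, with r = 0.877 with them and 0.669 without them, and in the plot of MVK against INSIG1 the groups lie apart along MVK except for SINS high 3 at 6.84 and SINS low 1 at 6.87.

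SINS low 4 had the lowest value of all 12 livers in 5 of the 5 measured genes. It was also lowest in 5 of 8 further enzymes of the pathway, in 1 of which, SC5D, SINS low 6 had the same value of 7.70. The mean of the 5 genes, each taken relative to its own mean over the livers, was −1.13 in SINS low 4. This mean was 0.11, 0.67, −0.46, −0.11, −0.06 and 0.59 in SINS high 1 to 6, and 0.49, −0.03, −0.06, −1.13, 0.23 and −0.25 in SINS low 1 to 6. The gap of SINS low 4 to the next liver of its group was 0.545 of the group's range and did not pass Dixon's test for an outlier at the 95% level. The highest livers were SINS high 2, SINS high 6 and SINS low 1, so that both groups held livers with high and with low levels. The array of SINS low 4 had a median correlation with the other arrays of 0.979, within the range of 0.977 to 0.984 over all arrays. The lower end of this range was SINS high 3. The array quality weights of limma were 0.801 for SINS low 4 and 0.760 for SINS high 3, near the lower end of their range of 0.754 to 1.69. The part of array quality in the low levels of these 2 livers was not tested. Some marker means of SINS low 4 lay at an end of their range. Its mean of 5 stellate cell markers, 5.174, was the lowest of all livers, next to 5.356 in SINS high 2. SINS high 2 had the highest mean of the 5 genes. Over the 12 livers the mean of the stellate cell markers had an r of 0.390 (rho 0.399) with the mean of the 5 genes. The mean of 5 hepatocyte markers in SINS low 4, 11.438, was the highest of all livers, next to 11.430 in SINS low 5. The mean of 8 red blood cell precursor markers in SINS low 4, 4.565, was the highest of the SINS low group, next to 4.03 in SINS low 2. It was below 5.09 in SINS high 1 and 5.03 in SINS high 4. The mean of 3 proliferation markers was lowest in SINS high 3, at 4.85, and in SINS low 4, at 4.91. The range was 4.85 to 6.80 in SINS high livers and 4.91 to 7.49 in SINS low livers. With the mean of the 5 genes, this proliferation mean had an r of 0.502 (rho 0.203) over the 12 livers. For TOP2A, CDK1 and AURKA singly, r was 0.675, 0.710 and 0.560 after the group means were subtracted. Without SINS low 4 it was 0.281, 0.326 and 0.048. The hepatocyte mean had an r of −0.36 and the red blood cell precursor mean one of −0.05. The part of proliferation and of these cells in the levels of the cholesterol genes was not tested.

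Several enzymes of the pathway outside the 7 genes varied with the mean of the 5 genes. Of a list of 15 such enzymes 8 were measured. Of these 8, 6 had an r above 0.5 with the mean of the 5 genes, against 4.37% of all genes. Without SINS low 4 the r of ACAT2 was 0.418 and that of NSDHL 0.416, so that the count depends on this liver. Among the 5 genes themselves, INSIG1 (r 0.390) and MVK (r 0.520) followed their mean least, at 0.158 and 0.317 without SINS low 4. Each of the 5 genes is part of this mean, which raises its r, so that these values cannot be compared with those of the other enzymes. The mean of the 8 enzymes, computed like that of the 5 genes, was 0.09, 0.23, −0.18, −0.21, −0.23 and 0.53 in SINS high 1 to 6, and 0.55, −0.02, 0.12, −0.82, 0.04 and −0.10 in SINS low 1 to 6. The 2 means had an r of 0.916 over the 12 livers. It was 0.862 within the SINS high group and 0.964 within the SINS low group, and 0.823 without SINS low 4 and SINS high 3. These correlations are a description over 12 livers whose arrays share 1 normalization.

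Among 12302 genes, the 4 whose pattern was most like the mean of the 5 genes were all late enzymes of sterol synthesis. They were MSMO1, which takes part in the removal of methyl groups from the sterol ring (r 0.944), and CYP51, the lanosterol demethylase (r 0.928). The others were HSD17B7, a sterol ketoreductase (r 0.908), and SC5D, the sterol C5 desaturase (r 0.868). The fifth was PLLP, a membrane protein of myelin and epithelia (r 0.847). PLLP was dim and varied little, at 3.82 to 4.15 in SINS high livers and 3.68 to 4.04 in SINS low livers. These values lie below the array medians of 4.36 to 4.42. MSMO1 had the widest range of the 4 enzymes and PLLP. Its log2 values were 8.64, 9.25, 8.32, 8.50, 8.47 and 9.61 in SINS high 1 to 6, against 9.49, 8.64, 9.03, 6.69, 8.80 and 8.36 in SINS low 1 to 6. SINS low 4 was the lowest liver in MSMO1, at 6.69, and SINS high 3 the second lowest, at 8.32, close to SINS low 6 at 8.36. CYP51 was 6.74 in SINS low 4, against 7.43 to 8.56 in SINS high livers and 7.70 to 8.66 in the other SINS low livers. ACAT2 (r 0.619), the thiolase that starts the pathway, and NSDHL (r 0.554), a sterol dehydrogenase, followed less closely. TM7SF2 (r 0.380), a sterol reductase, and PMVK (r 0.038), the kinase after MVK, followed least.

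**Figure D3:**
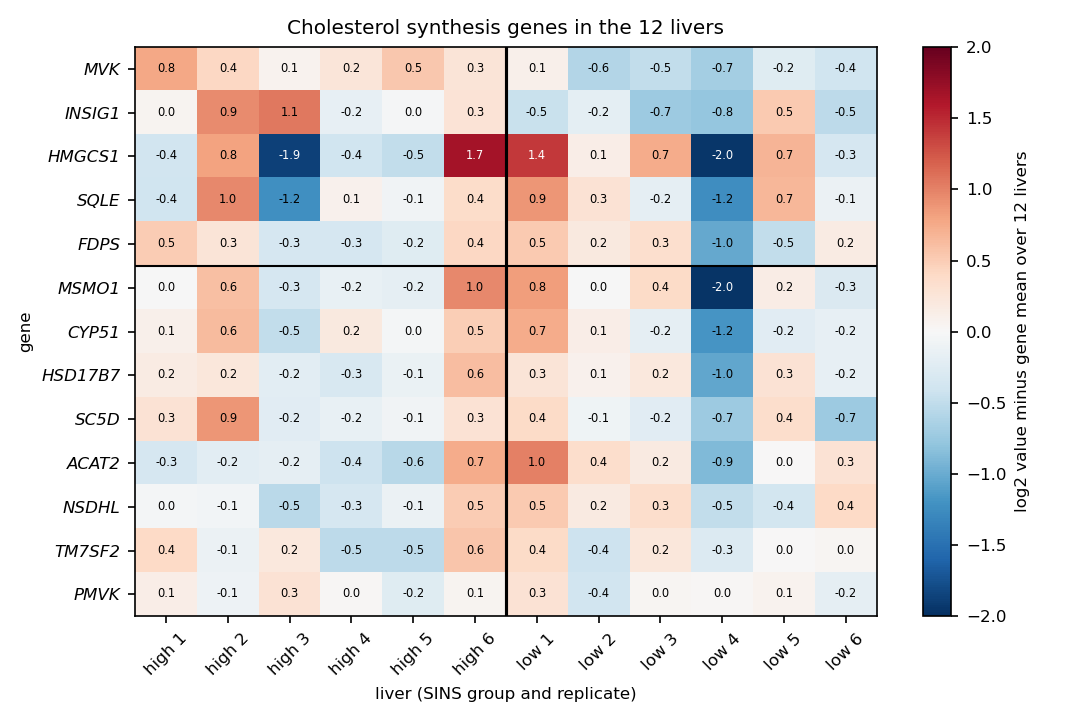
Log2 value minus the gene's mean over the 12 livers (colour and number) for the 5 genes above the line and 8 further enzymes of cholesterol synthesis below it, with SINS high livers left of the line and SINS low livers right of it. SINS low 4 has low values in nearly every row, with a mean of −1.13 over the 5 genes and −0.82 over the 8 enzymes, and MVK has the largest log2(FC) of these rows, 0.77.

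Single genes had different genes most like them. HMGCS1 was most like MSMO1 (r 0.879, rho 0.953), and FDPS was most like SCARB1, the receptor for high-density lipoprotein (r 0.904). INSIG1 was most like VSIR, an immune checkpoint protein (r 0.872), MVK most like LOC100518829 (r 0.933) and SQLE most like LOC100152560 (r 0.880). Each was picked as the highest r of 12302 genes over 12 livers, and no test was made of it. The last 2 transcripts lay near the bottom of the array's values, whose lowest was 0.61: LOC100518829 was at 1.31 to 1.66 in SINS high livers and 1.11 to 1.39 in SINS low livers, and LOC100152560 at 0.98 to 1.81 in SINS high livers and 1.27 to 1.86 in SINS low livers.

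Of the 8 further enzymes, 0 were called in either direction between the groups. Their log2(FC) lay between −0.32 for ACAT2 and 0.34 for SC5D, with a median of 0.08. ACAT2 was at −0.14 without SINS low 1 and at −0.52 without SINS low 4, where it was called down, and SC5D was at 0.20 without SINS high 2. SC5D had the smallest p of limma, 0.160. PMVK, the enzyme that acts on the product of MVK, had a log2(FC) of 0.05. MVK was thus the called enzyme of cholesterol synthesis, and the other 11 measured enzymes were not called.

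Of 11 genes that process or regulate SREBP, 4 were measured, among them SCAP, and 0 were called. Their median log2(FC) was 0.19, and RNF139, a ubiquitin ligase of the endoplasmic reticulum, had the smallest p (log2(FC) 0.19, exact permutation p = 0.0563). Of 6 SREBP2 targets outside synthesis 3 were measured, and 1 was called up. This was NPC1L1, which takes up cholesterol at the apical membrane. Its log2 values were 5.73, 6.05, 5.22, 5.67, 5.59 and 5.90 in SINS high 1 to 6, against 5.86, 4.40, 4.61, 4.56, 5.91 and 4.99 in SINS low 1 to 6. SINS low 1 and SINS low 5 lay among the SINS high livers, and the other 4 SINS low livers below all of them. The log2(FC) was 0.64 (standard error 0.26, adjusted p of limma 0.374, exact permutation p = 0.0649), and the call was lost without SINS high 2, SINS low 2, SINS low 3 or SINS low 4, when the log2(FC) was as low as 0.51.

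MMAB, an enzyme of vitamin B12 metabolism, is the neighbour of MVK in the pig assembly Sscrofa11.1, and in human cells both genes are SREBP2 targets that share a promoter region. MMAB did not show the difference of MVK. Its log2 values were 6.00, 6.44, 5.89, 6.49, 6.46 and 6.99 in SINS high 1 to 6, against 7.14, 6.05, 6.32, 6.06, 6.25 and 6.52 in SINS low 1 to 6. The groups overlapped throughout, with a log2(FC) of −0.01 (standard error 0.20, adjusted p of limma 0.991) whose sign was not settled. The log2(FC) of MVK exceeded that of MMAB by 0.78 (exact permutation p = 0.00649, adjusted p over the 11 pairs 0.0714), and 5 of 6 SINS high livers had a larger gap between the genes than any SINS low liver. With the mean of the 5 genes over the livers, MMAB had an r of 0.604.

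The isoprenoid branch, which uses farnesyl diphosphate for coenzyme Q, dolichol and prenyl groups, had 9 of 11 genes measured, of which 0 were called up and 2 down. The log2(FC) was negative in 8 of the 9, with a median of −0.19, against 11846 of all 25388 transcripts with a negative value. Whether the branch differed from other genes was not tested. PDSS1, which makes the side chain of coenzyme Q, had log2 values of 4.56, 4.64, 4.70, 4.76, 4.21 and 5.60 in SINS high 1 to 6, against 5.72, 5.55, 5.51, 5.46, 5.07 and 5.89 in SINS low 1 to 6. In 5 of 6 SINS high livers PDSS1 was below every SINS low liver, and SINS high 6 lay among the SINS low livers. Its log2(FC) was −0.79 (standard error 0.20, adjusted p of limma 0.280, exact permutation p = 0.0108). RABGGTB, a subunit of the enzyme that prenylates Rab proteins, had a log2(FC) of −0.385 (standard error 0.12, adjusted p of limma 0.302), just beyond the fold limit. It was 6.33 to 6.61 in SINS high livers and 6.53 to 7.16 in SINS low livers, and its call was lost without SINS high 2 or 5 or without SINS low 1, 4 or 6, when the log2(FC) came as near to 0 as −0.325.

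Of 15 genes of cholesterol export, esterification and bile acid synthesis 10 were measured, and 1 was called up and 0 down. SOAT2, which esterifies cholesterol for storage and lipoproteins, had log2 values of 7.54, 7.31, 7.81, 7.44, 7.43 and 7.59 in SINS high 1 to 6, against 6.82, 6.79, 7.36, 7.05, 7.0 and 6.72 in SINS low 1 to 6. In 5 of 6 SINS high livers SOAT2 was above every SINS low liver. Its log2(FC) was 0.56 (standard error 0.12, adjusted p of limma 0.280, exact permutation p = 0.00433). Of 6 genes of cholesterol uptake and lysosomal release 4 were measured and 0 called, with NPC2, a sterol carrier of lysosomes, at the smallest p (log2(FC) 0.115, exact permutation p = 0.251).

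In fatty acid synthesis, the branch under the related factor SREBP1, 8 of 11 genes were measured and 0 called, with a median log2(FC) of 0.06. THRSP, a lipogenic nuclear protein, had the largest log2(FC) of the list, 1.12 (exact permutation p = 0.134), and averaged 8.14 ± 0.63 in SINS high livers and 7.02 ± 1.57 in SINS low livers (SD, n = 6 each). The log2(FC) of THRSP was 0.59 without SINS low 1, and THRSP was called without SINS low 2 (log2(FC) 1.42) or without SINS low 5 (1.43). The lists of this and the preceding paragraphs are given by counts and medians, and whether a list differed from other genes was not tested.

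**Figure D4:**
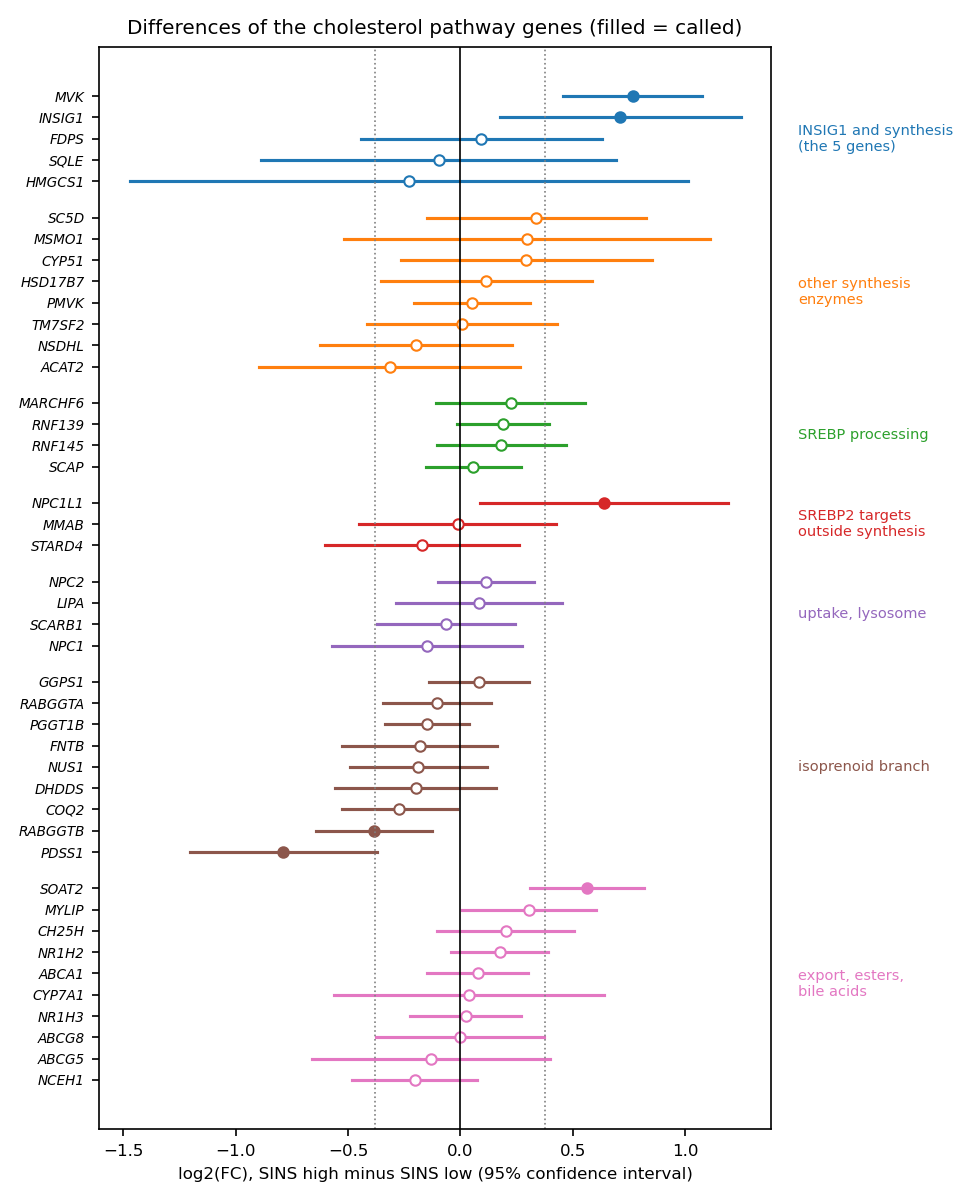
log2(FC), SINS high minus SINS low, with 95% confidence intervals of limma, for each measured gene of 7 lists; filled points are called, and dotted lines mark a fold change of 1.3. MVK at 0.77 and SOAT2 at 0.56 have short intervals above 0, whereas that of HMGCS1 spans 0.36- to 2.02-fold.

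Markers of liver cell types were set beside the called genes. Of 5 hepatocyte markers 0 were called, with a mean log2 value of 11.248 to 11.364 in SINS high livers and 11.252 to 11.438 in SINS low livers. ALB, APOA1, FGB and SERPINA1 lie near the upper end of the array's values, of which the highest was 12.84, so that this mean can show little of a change in hepatocytes. Of 8 red blood cell precursor markers 6 were called up, with a mean of 4.23 to 5.09 in SINS high livers and 3.43 to 4.565 in SINS low livers. This mean had an r of 0.615 with MVK and 0.187 with INSIG1 over the 12 livers. After each group's mean was subtracted, these were 0.038 and −0.451. Of 6 Kupffer cell markers 2 were called up, with a mean of 7.30 to 8.01 in SINS high livers and 7.17 to 7.65 in SINS low livers. Its r was 0.601 with MVK and 0.578 with INSIG1, and 0.278 and 0.354 after the group means were subtracted. Sinusoidal endothelium markers, of which 5 were measured and 0 called, had a mean of 7.43 to 8.20 in SINS high livers and 7.27 to 7.86 in SINS low livers, with an r of 0.677 with MVK and 0.558 with INSIG1, and of 0.444 and 0.320 after the group means were subtracted. The mean of the stellate cell markers had an r of 0.174 with MVK, and of 0.540 after the group means were subtracted. For lymphocyte markers these were 0.008 and −0.526, and for bile duct markers −0.398 and −0.079. With INSIG1 the r was −0.10 for stellate cell, 0.285 for lymphocyte and −0.527 for bile duct markers. After the group means were subtracted it was −0.02, 0.115 and −0.371. The proliferation mean had an r of −0.208 with MVK and −0.191 with INSIG1, and of 0.197 and 0.043 after this subtraction. The part of these cells and of proliferation in the differences of MVK and INSIG1 was not tested. Of 5 stellate cell, 3 bile duct, 5 lymphocyte and 3 proliferation markers 0 were called.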

How the data were processed

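The authors hybridized liver RNA of 12 piglets to Affymetrix Porcine Gene 1.0 ST arrays and deposited log2 values, 1 per transcript, after background correction, normalization and probe summary with RMA. The genome build of the array was not given in the sources used here, so that no positions are printed. Transcripts were named from the platform annotation, in which 13257 of 25388 transcripts have 1 symbol, 427 several and 11704 none, and a gene is its transcript with the highest mean. RefSeq supplied the order of genes.

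The comparison used limma 3.58.1 (lmFit, eBayes) under R 4.3.3 with no covariate, after a test on simulated data. Nothing says whether piglets shared a litter. The p-values measure the spread between these livers and treat the livers as independent, so that shared litters could make them too small. Correlations between genes had 100000 permutations, adjusted over 10 pairs, in scipy 1.17.1. The genes and lists were chosen with earlier results of these data known. Named were all members, up to 4 called genes of each list or its gene with the smallest p, the 5 genes most like the mean of the members and the gene most like each. MMAB, ACAT2, NSDHL, TM7SF2, PMVK and SCAP were named after their values were seen. Alternatives were the methods' t-test, an intensity trend with robust eBayes, a second quantile normalization, array quality weights, median centring, removal of the 25% of transcripts with the lowest means, 1 transcript per gene, a replicate block, a fold change above 1.5 and leaving out each array. Figures were drawn with matplotlib 3.10.9.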

Additional observations from a re-analysis of the deposited data

Results flagged for a closer look

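The lowest and the highest liver of each group were set against the nearest other liver of that group, in 48 groups of 6 livers. By chance about 1 in 20 groups would be picked out in this way, and 2 were. HSD17B7, a ketoreductase of sterol synthesis, was 6.23 on the log2 scale in SINS low 4, against 7.11 in the next lowest liver of the SINS low group, a gap of 0.662 of the group's range. ACAT2, the thiolase at the start of the pathway, was 6.87 in SINS high 6, against 5.95 in the next highest liver of the SINS high group, a gap of 0.708 of the range.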

How the results depend on the processing

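MVK and INSIG1 were called up, and 0 of the 5 genes down, under every alternative run, at a log2(FC) of 0.69 to 0.86 for MVK and 0.57 to 0.89 for INSIG1. With single livers left out, the log2(FC) ranged from −0.64 to 0.12 for HMGCS1, from −0.36 to 0.14 for SQLE, from −0.10 to 0.21 for FDPS and for the median of the 5 genes, from −0.0657 to 0.49 for MSMO1, from −0.081 to 0.19 for HSD17B7, and from −0.13 to 0.14 for MMAB. With array quality weights FDPS and the median of the 5 genes were at −0.0037, and MMAB at 0.0071, and with quantile normalization MMAB was at 0.0215. Of SREBP2 targets outside synthesis, 0 were called up by the methods' t-test and 0 to 1 with single livers left out. Of the isoprenoid branch, 1 was called down with array quality weights, quantile normalization or a fold change above 1.5, and 1 to 2 with single livers left out. Of export, esterification and bile acid genes, 0 were called up at a fold change above 1.5 and 1 to 2 with single livers left out. Counts with single livers left out were 0 to 1 down for other synthesis enzymes (ACAT2 at −0.52 without SINS low 4) and 0 to 1 both up and down for fatty acid synthesis. Pairs of the 5 genes with an adjusted p below 0.05 numbered 1, but 2 after group means were subtracted, when the r of MVK and INSIG1 was −0.0612, and 0 within SINS high (r −0.46), within SINS low, without the 2 livers farthest from the median, and without SINS low 4 and SINS high 3, an alternative chosen after seeing the data. In these last, SQLE and FDPS had an r of −0.0271, and of 0.2505 without SINS low 4 alone. The cause of these shifts was not tested.

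The labels do not say whether same-numbered livers of the groups shared more than a number. Their deviations correlated at −0.0003 to 0.341, over 0.1 in 2 of 6 pairs. The 0.341 was that of number 6, and the next highest was 0.107 for number 1. Of the 12 livers 3 correlated best with their own number, among them both livers numbered 6, a count that was not set against chance. With a replicate block on that number the log2(FC) of MVK was 0.77 (adjusted p 0.0733 from limma) and that of INSIG1 0.71 (adjusted p 0.255), and no call among these genes and lists changed.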
